A study of Mus musculus with 4 samples.

Results

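Quiescence and resting-state regulators were read in the transcriptomes of Treg cells stimulated with TSLP (thymic stromal lymphopoietin, an epithelial cell-derived cytokine) or with PBS. The set was chosen by gene name and held 9 of the 24418 genes listed, namely Tcf7, Lef1, Satb1, Bach2, Foxo1, Foxo3, Klf2, S1pr1 and Id3. All 9 were found. Treg cells were sorted from spleens and lymph nodes of sex-matched Foxp3YFP-Cre mice aged 8 to 12 weeks, in which the Foxp3 locus drives a yellow fluorescent protein joined to Cre recombinase, an allele that both groups carried. After 3 h in culture with TSLP at 100 ng/mL, or with PBS alone, RNA-seq was performed on 2 samples per group (PBS 1 and PBS 2, and TSLP 1 and TSLP 2). The number of mice behind a sample and the relation between samples are not given in the sources used here, so p-values measure only the spread between these samples, which may be technical. The PBS libraries held 11328132 and 10724392 reads on genes, and the TSLP libraries 11761234 and 10271571. In each pair of values the library numbered 1 is given first. Values are given as normalized counts, that is reads divided by a size factor of the library, from 0.957 to 1.06, and fold changes are on the scale of log2(normalized count + 1).

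Resting T cells, Treg cells included, keep a transcription program that holds them small, non-dividing and able to recirculate through lymphoid organs. FOXO factors are active in the nucleus when PI3K-AKT signaling is low, and they drive genes such as Klf2, Ccr7 and Il7r, while KLF2 drives S1pr1, the receptor with which T cells leave lymphoid tissue. TCF1 and LEF1, encoded by Tcf7 and Lef1, and the repressor BACH2 hold back effector differentiation, and ID3 blocks the E proteins. Many of these genes are known to go down when antigen turns T cells into effectors.

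None of the 9 genes passed the test between Treg cells held with TSLP and with PBS. For 8 of them the PBS libraries differed more from each other than the group means did. A difference of single libraries varies more than one of means, and the share over all genes was not counted. Klf2 had the lowest log2 fold change, −0.47, and Foxo3 the highest, 0.45. By limma with Benjamini-Hochberg adjustment over the 11392 genes tested, 0 of the 9 had an adjusted p under 0.05, where 0 of all genes tested (0%) had one. An unadjusted p under 0.05 was found for 0 of the 9 by limma, beside 192 of all genes tested (1.69%), and edgeR and DESeq2 on recovered reads also gave 0 of the 9 on either scale. Leaving out a PBS library changed the unadjusted count. By limma, Klf2 (unadjusted p = 0.0156) and Bach2 (unadjusted p = 0.0264) were under 0.05 without PBS 2, beside 1858 of all genes tested. Without PBS 1, Id3 was (unadjusted p = 0.0462 by limma), beside 263 of all genes tested. The smallest unadjusted p among the 9 was 0.145, for Klf2, and all 9 had an adjusted p of 0.9999 by limma. The median log2 fold change was 0.051 over the 9 genes, 6 of which had a positive value, and 0.012 over all genes tested, of which 51.2% had a positive value. The TSLP libraries were both higher than either PBS library in 1 of the 9 genes, Satb1, and both lower in 0, where 14.5% and 14.4% of all genes tested did so. An exact permutation test of a single gene with 2 samples against 2 cannot go below p = 0.333. All 9 passed the filter on low counts, and each had at least 177 reads in every library.

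**Figure D1:**
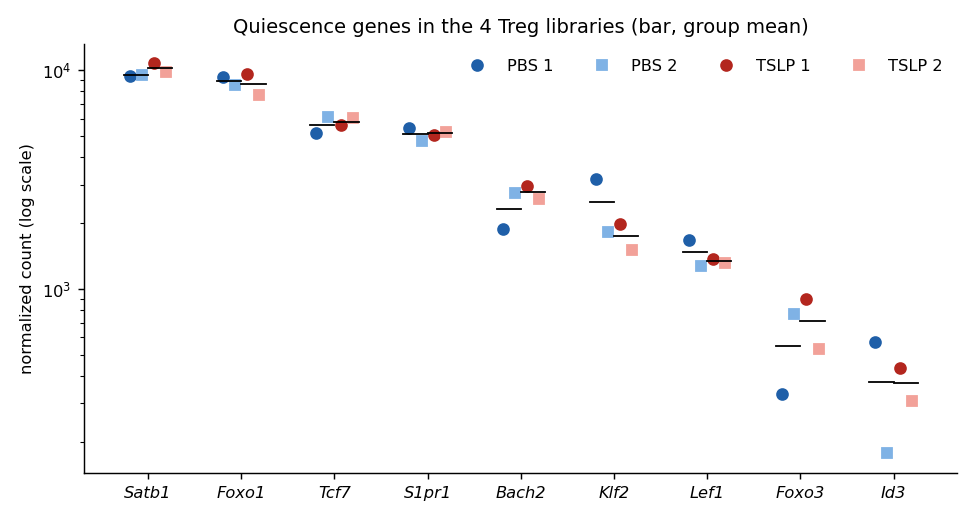
Normalized counts (log scale) of the 9 quiescence genes in each library, with a circle or square for each library and a bar at the mean of each group. Satb1, Foxo1, Tcf7 and S1pr1 lie in a narrow band in all 4 libraries, while PBS 1 stands apart from PBS 2 for Klf2, Bach2, Foxo3 and Id3.

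The sorted cells carried the markers of Treg cells. Foxp3, the lineage factor, was at 222 and 472 cpm (reads per 1000000 reads on genes) with PBS and at 407 and 469.6 cpm with TSLP, the lowest value being that of PBS 1. Ikzf2, which encodes Helios, was also lowest in PBS 1, at 568 cpm against 953 to 996 in the other libraries, and so was Il2ra, the IL-2 receptor chain, at 342 cpm against 433 to 498. The other two markers went the other way. Tnfrsf18, which encodes GITR, was highest in PBS 1, at 532 cpm against 348 to 427, and Ctla4, an inhibitory receptor, was at 1284 cpm against 1142 to 1253. Over 5 markers of Treg cells, all tested and led by Ctla4, the summed level was 2947 and 3384 cpm with PBS and 3390.5 and 3599.8 cpm with TSLP. Of 5 markers shared by T cells, 4 were listed, led by Cd4, and they summed to 1304 to 1524 cpm. Resting conventional CD4 T cells express many of the same quiescence genes. Cd40lg, Il2, Dapl1, Igfbp4 and Nsg2 were taken as markers of conventional CD4 T cells, resting or not. These 5 genes summed to 248 and 163 cpm with PBS and 225 and 202 cpm with TSLP. Nsg2 was the most abundant of the 5 over all libraries. Dapl1, Igfbp4 and Nsg2 were also among the naive and central genes described below, so the sum does not measure resting conventional cells alone. Igfbp4 and Nsg2 were highest in PBS 1, Cd40lg and Dapl1 in TSLP 1 and Il2 in TSLP 2, where Dapl1 had no reads. All 5 were higher in PBS 1 than in PBS 2, with log2 ratios of PBS 1 to the average of the remaining libraries from 0.20 for Nsg2 to 1.64 for Dapl1, which like Il2 had few reads. Of the 5 Treg markers 3 were lower and 2 higher in PBS 1 than in PBS 2. The part of these markers in the differences of PBS 1 from the other libraries was not tested. B cells also express several of these regulators. Their 5 markers summed to 2.30 and 10.4 cpm with PBS and 4.93 and 9.35 cpm with TSLP, with Cd79b the most abundant and Pax5 without reads in any library. Endothelial cells, which express Klf2 and S1pr1 strongly, were represented by 5 markers, of which Cdh5, Kdr, Tek and Egfl7 had no reads in any library and only Pecam1, also expressed by leukocytes, was read (118 to 176 cpm). The 5 myeloid markers summed to 17.6 and 11.9 cpm with PBS and 8.59 and 8.76 cpm with TSLP, with Adgre1 without reads. Cd68, the most abundant, was read 174 and 66 times with PBS and 59 and 16 times with TSLP, while Lyz2 was read once in PBS 1 and 37 to 43 times in the other libraries. Markers of CD8 T cells, led by Cd8b1, summed to 13.4 and 7.83 cpm with PBS and 8.84 and 11.97 cpm with TSLP. PBS 1 had the highest sum of both lists, and the part of these markers in the results was not tested. Markers of NK cells summed to at most 2.43 cpm (Klrb1c alone, with Ncr1 and Klra8 without reads) and those of erythroid cells to at most 0.681 cpm (Alas2, with Hba-a1 and Hbb-bs without reads). None of the tested markers in these lists reached an unadjusted p below 0.05 by limma. Fewer cells of a type and less RNA per cell cannot be told apart in such samples.

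Of the HMG-box factors, Tcf7 lies at chr11:52252371-52283014 of mm10 (GRCm38), on the reverse strand, and encodes TCF1. Normalized counts of Tcf7 were 5172 and 6098 with PBS and 5603 and 6038 with TSLP. Both TSLP values lay between the PBS values. The means were 5635 ± 655 (SD, n = 2) and 5821 ± 308 (SD, n = 2), which gave a log2 fold change of 0.051 ± 0.22 (SE; unadjusted p = 0.826 by limma). Its 95% interval reached from 0.730-fold to 1.47-fold. Lef1, which encodes the related factor LEF1, lies at chr3:131110471-131224356, on the forward strand. It had normalized counts of 1670.0 and 1275 with PBS and 1364 and 1315 with TSLP. PBS 1 was the highest and PBS 2 the lowest library, with the TSLP libraries between them. The log2 fold change of Lef1 was −0.12 ± 0.23 (SE; unadjusted p = 0.608 by limma), with a 95% interval from 0.638-fold to 1.32-fold, and it was 0.071 without PBS 1.

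Satb1 encodes a chromatin organizer that shapes the T cell genome and lies at chr17:51736187-51833290, on the reverse strand. It had normalized counts of 9414 and 9555 with PBS and 10735 and 9789 with TSLP. The PBS libraries lay close together, and both TSLP libraries were above them, TSLP 2 only slightly. The means were 9485 ± 99.4 (SD, n = 2) and 10262 ± 669 (SD, n = 2), which gave a log2 fold change of 0.11 ± 0.23 (SE; unadjusted p = 0.641 by limma) with a 95% interval from 0.751-fold to 1.56-fold. Satb1 has the longest exons of the set, 19027 bases in all. With the trend of each library over exon length removed, its log2 fold change was −0.16, its groups overlapped, and S1pr1 became the single gene of the 9 without overlap.

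Bach2 encodes a transcriptional repressor that restrains effector programs in T cells and lies at chr4:32238804-32586108, on the forward strand. Its normalized counts were 1885 and 2743 with PBS and 2953 and 2573 with TSLP. PBS 1 was low, while PBS 2 lay between the TSLP libraries. The log2 fold change was 0.28 ± 0.25 (SE; unadjusted p = 0.291 by limma), with a 95% interval from 0.823-fold to 1.79-fold, and without PBS 1 it was 0.0069. An antisense gene that overlaps Bach2, Bach2os, had 78 reads in the 4 libraries together. The strand setting of the counting is not given in the sources used here, so reads of such partners may not have been told apart.

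TSLP signals through STAT5, and TCF1 and LEF1 bind DNA themselves, so the regions before the start sites were searched for their short recognition letters. The RefSeq table (GRCm38.p6) held 16 windows of 300 bases for 8 of the 9 genes, S1pr1 excepted. The letters TTCNNNGAA of STAT factors stood in 1 of the 16 windows, that of Bach2, beside 8.30% of all 32851 windows. CTTTGA, the letters of TCF/LEF factors, stood in 2 windows, of Bach2 and Lef1, beside 16.0% of all. TGTTTAC, the letters of FOXO factors, stood in 1 window of Tcf7, beside 3.65% of all. Both strands were searched, and these matches do not overlap each other. The stretches from 250 to 11 bases before the start, which in both genes is a start inside the gene, are shown for the windows with a STAT or TCF/LEF match, on the forward strand, to let the letters be seen in their context. Capitals mark TTCNNNGAA in Bach2 and TCAAAG, the reverse complement of CTTTGA, in both. A match is a description of letters and not a bound site.
Bach2, chr4:32417185-32417424: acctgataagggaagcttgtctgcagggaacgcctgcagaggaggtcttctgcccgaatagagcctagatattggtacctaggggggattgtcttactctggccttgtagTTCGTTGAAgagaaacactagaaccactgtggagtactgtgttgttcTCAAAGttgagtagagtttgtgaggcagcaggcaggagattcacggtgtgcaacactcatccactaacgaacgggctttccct
Lef1, chr3:131156044-131156283: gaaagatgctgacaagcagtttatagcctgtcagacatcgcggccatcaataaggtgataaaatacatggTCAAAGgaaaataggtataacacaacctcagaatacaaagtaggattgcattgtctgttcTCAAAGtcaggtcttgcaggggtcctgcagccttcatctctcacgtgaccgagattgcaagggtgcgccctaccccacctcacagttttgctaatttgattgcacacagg

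Foxo1 and Foxo3 encode forkhead factors. Foxo1, the main FOXO gene of T cells, lies at chr3:52268336-52353221, on the forward strand, and had normalized counts of 9306 and 8590.3 with PBS and 9641 and 7741 with TSLP. TSLP 1 was the highest and TSLP 2 the lowest, with both PBS libraries between them. Its means were 8948 ± 506 (SD, n = 2) and 8691 ± 1344 (SD, n = 2), and the log2 fold change was −0.050 ± 0.24 (SE; unadjusted p = 0.841 by limma). Its 95% interval reached from 0.664-fold to 1.41-fold. Foxo3, a relative with overlapping functions, lies at chr10:42181841-42276755, on the reverse strand. It had 331 and 766 normalized counts with PBS and 898 and 531 with TSLP. The libraries of a group thus differed more than the groups did, and the lowest value was that of PBS 1. The log2 fold change was 0.45 ± 0.42 (SE; unadjusted p = 0.307 by limma), with a 95% interval from 0.711-fold to 2.63-fold. Without PBS 1 this value was −0.15, and without PBS 2 it was 1.06.

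Klf2 encodes the zinc finger factor downstream of FOXO1 that keeps T cells quiescent and recirculating, and it lies at chr8:72319033-72321656, on the forward strand. Its normalized counts were 3180.1 and 1812 with PBS and 1987 and 1502 with TSLP. PBS 1 stood well above the other libraries, and PBS 2 lay between the TSLP libraries. The means of the PBS and TSLP libraries were 2496 ± 967 (SD, n = 2) and 1744 ± 343 (SD, n = 2). This gave a log2 fold change of −0.47 ± 0.30 (SE; unadjusted p = 0.145 by limma), with a 95% interval from 0.452-fold to 1.15-fold. Without PBS 1 the log2 fold change was −0.069. S1pr1 encodes the sphingosine-1-phosphate receptor used for egress and lies at chr3:115710433-115715072, on the reverse strand. It had normalized counts of 5465 and 4749 with PBS and 5063 and 5239.9 with TSLP. Here too the TSLP values lay between those of PBS. The means were 5107 ± 506 (SD, n = 2) and 5151 ± 125 (SD, n = 2), and the log2 fold change was 0.016 ± 0.22 (SE; unadjusted p = 0.944 by limma), with a 95% interval from 0.718-fold to 1.42-fold. Over the 4 libraries the ratio of the highest to the lowest normalized count was 2.12 for Klf2 and 1.15 for S1pr1.

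Id3 encodes an inhibitor that keeps E proteins from DNA and lies at chr4:136143497-136145755, on the forward strand. It had 571 and 177 normalized counts with PBS and 436 and 306 with TSLP. Both TSLP libraries lay inside the range of the PBS libraries, which differed by 3.21-fold, the widest spread of the 9 genes. The exact Poisson 95% intervals, which cover counting error only, reached from 526 to 619 normalized counts in PBS 1 and from 152 to 205 in PBS 2 and did not overlap. The group means were nearly equal, 374 ± 278 (SD, n = 2) and 371 ± 91.9 (SD, n = 2). The log2 fold change was 0.20 ± 0.51 (SE; unadjusted p = 0.704 by limma), with a 95% interval from 0.517-fold to 2.55-fold. It was −0.012 by edgeR with TMM, −0.011 by DESeq2 and 0.19 by edgeR with a replicate block. By limma it was 1.04 without PBS 1 and −0.64 without PBS 2. Among 8173 other genes with a mean normalized count of at least 100, those with the profile over the 4 libraries most like that of Id3 were Plaur, Egln3 and Dpp7, with a root mean square difference of the centred log2 values of 0.10, 0.13 and 0.13. With 4 libraries such likeness is a description only.

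**Figure D2:**
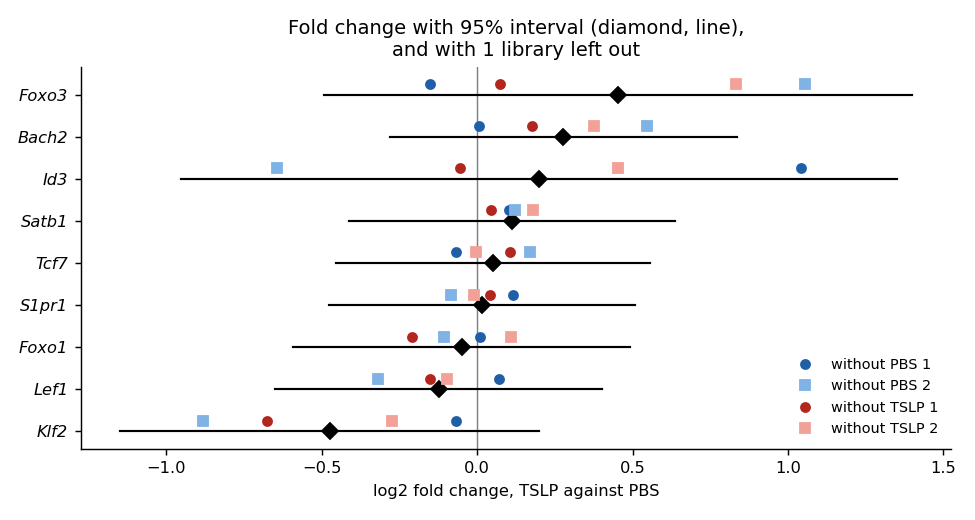
Log2 fold change (TSLP against PBS) of each quiescence gene from all 4 libraries (diamond) with its 95% interval (line), and the value with a single library left out (circles and squares above the line). Every interval includes 0, and the points of Foxo3, Id3 and Klf2 spread widest, from −0.64 without PBS 2 to 1.04 without PBS 1 for Id3.

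The 4 libraries were next compared with each other. PBS 1 held the highest or the lowest value in 8 of the 9 genes, Foxo1 being the exception. It was highest for Klf2, Id3, Lef1 and S1pr1 and lowest for Tcf7, Satb1, Bach2 and Foxo3. With only 4 libraries, any of them is often at an end, and the share over all genes tested was not counted. The hand-picked lists are the only comparison, and the FOXO targets among them include Klf2 and S1pr1. In the lists described below, PBS 1 was highest in 6 and lowest in 4 of the 13 family relatives tested. The counts were 5 and 4 of the 13 FOXO targets and 6 and 4 of the 16 partners and regulators tested. They were 6 and 5 of the 14 naive and central genes and 7 and 4 of the 15 activation and effector genes. The median size of the log2 difference over the 9 genes was 0.39 between PBS 1 and PBS 2, 0.29 between PBS 1 and TSLP 1 and 0.34 between PBS 1 and TSLP 2. It was 0.13 between PBS 2 and TSLP 1, 0.14 between PBS 2 and TSLP 2 and 0.20 between TSLP 1 and TSLP 2. By this median PBS 2 was closer to either TSLP library than to PBS 1. Satb1 and Foxo1 were exceptions, with log2 differences between PBS 1 and PBS 2 that were smaller than those of PBS 2 from either TSLP library. The same order of size was seen over the 8174 genes with a mean normalized count of at least 100, with 0.36 to 0.39 for the pairs that include PBS 1 and 0.21 to 0.23 for the others. The difference between PBS 1 and PBS 2 was larger than that between the group means in 8 of the 9 genes, Satb1 being the exception. The difference between the TSLP libraries was larger in 6. Single libraries vary more than means, and these shares were not counted over all genes, so the counts do not set the 9 genes apart.

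Libraries differed with the exon length of genes, and the quiescence genes span a wide range of it, from 1791 bases for Id3 to 19027 for Satb1. On the log2 scale PBS 1 exceeded the average of the remaining libraries by 0.99 for Id3, where the trend over all genes at this length was 0.40. For Klf2 (1847 bases) this log2 ratio was 0.86 and the trend 0.39. Both short genes were thus higher in PBS 1 than the trend. Among the long genes, Foxo3 (7571 bases) had a ratio of −1.11 where the trend was −0.21, and Bach2 (9940 bases) had −0.55 where the trend was −0.32. Lef1 (8788 bases) and Foxo1 (8665 bases) went the other way, with ratios of 0.34 and 0.11 where the trend was −0.27 and −0.26. Satb1 had −0.09 where the trend was −0.65. Tcf7 (2625 bases) had −0.19 where the trend was 0.26, and S1pr1 (3046 bases) had 0.12 where the trend was 0.19. With the trend removed, the median size of the difference between PBS 1 and PBS 2 over the 9 genes was 0.51, against 0.39 before, and the libraries came closer in 5 of the 9 genes. The part of exon length in the comparison of TSLP with PBS was not tested beyond this removal.

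**Figure D3:**
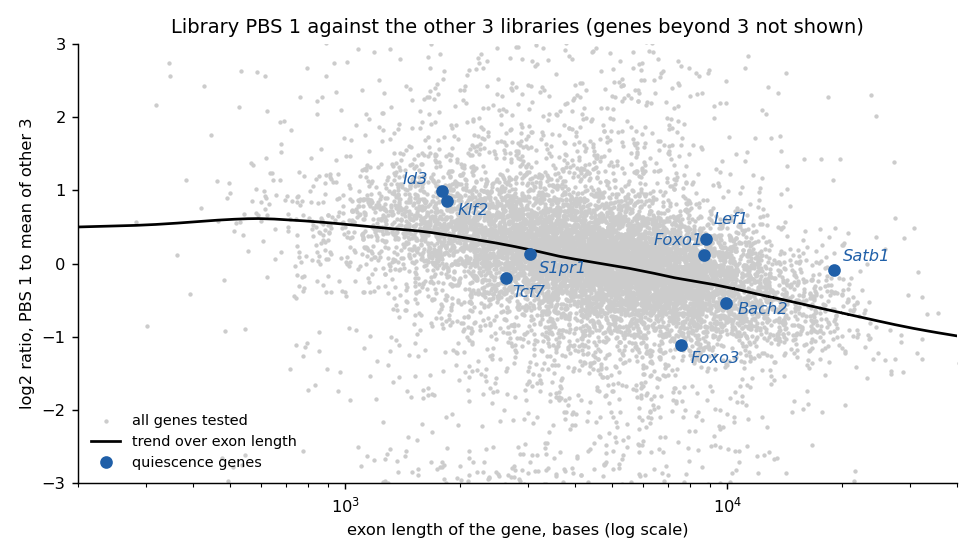
Log2 ratio of library PBS 1 to the average of the remaining libraries against exon length (log scale) for the genes tested (grey, some beyond the axes) and the 9 quiescence genes (blue), with the trend over all genes (line). Id3 and Klf2 lie above the line at short lengths, Foxo3 and Bach2 below it, and Lef1, Foxo1 and Satb1 above it at long lengths.

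Levels were compared between genes per exon length, as RPKM (cpm per kilobase of exon). Tcf7 was the highest of the 9 in every library, at 179 to 217 RPKM. By its mean it lay above 98.6% of the 10944 genes that were tested and had a known exon length. S1pr1 followed in every library, at 145 to 163 RPKM, and did not overlap with Tcf7. Klf2 came next in PBS 1 and Foxo1 in the other libraries, and their ranges of 75.7 to 157 and 83.2 to 100.4 RPKM overlapped. Satb1 was the fifth in every library, at 45.1 to 50.9 RPKM, apart from both of its neighbours in this order. Bach2 (17.3 to 26.8 RPKM), Id3 (9.22 to 29.0 RPKM) and Lef1 (13.5 to 17.3 RPKM) could not be ordered, since their ranges overlapped. Foxo3 was the lowest by its mean, at 3.99 to 10.7 RPKM, although in PBS 2 it lay just above Id3. Exon lengths were summed over all annotated transcripts, so that a gene with long alternative exons can be placed too low.

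Among the relatives read, Tcf7, Foxo1, S1pr1 and, by a smaller margin, Bach2 had the highest mean level of their families. Lef1, Foxo3, Klf2 and Id3 did not. Tcf7 exceeded Lef1 by a wide margin (means of 201 and 14.7 RPKM), and the relatives Tcf7l1 and Tcf7l2 were at 0.728 and 0.606 RPKM. Foxo1 was at 93.5 RPKM, above Foxo4 at 19.7 and Foxo3 at 7.66, and Foxo6 had reads in TSLP 1 only. Bach2 and Bach1, which competes for similar DNA sites, were at 23.5 and 19.2 RPKM, and both were lowest in PBS 1. Of the KLF genes, Klf6 was at 148 RPKM and Klf2 at 105, followed by Klf13 at 42.2 and Klf4 at 27.1. Like Klf2, Klf4 was highest in PBS 1 and lowest in TSLP 2, with normalized counts of 1197 and 797 with PBS and 995 and 612 with TSLP. S1pr1 was at 155 RPKM, S1pr4 at 47.4 and S1pr2 at 3.44, while S1pr3 and S1pr5 had no reads in any library. Id2, the E protein inhibitor linked to effector cells, was at 42.7 RPKM, above Id3 at 19.0. Of 17 relatives, 13 passed the filter on low counts, 0 had an unadjusted p under 0.05 by limma, and their median log2 fold change was −0.17. Without overlap of the groups, 2 of the 13 (Klf3 and Klf6) were higher and 3 (Tcf7l1, Foxo4 and S1pr4) lower with TSLP, beside 14.5% and 14.4% of all genes.

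**Figure D4:**
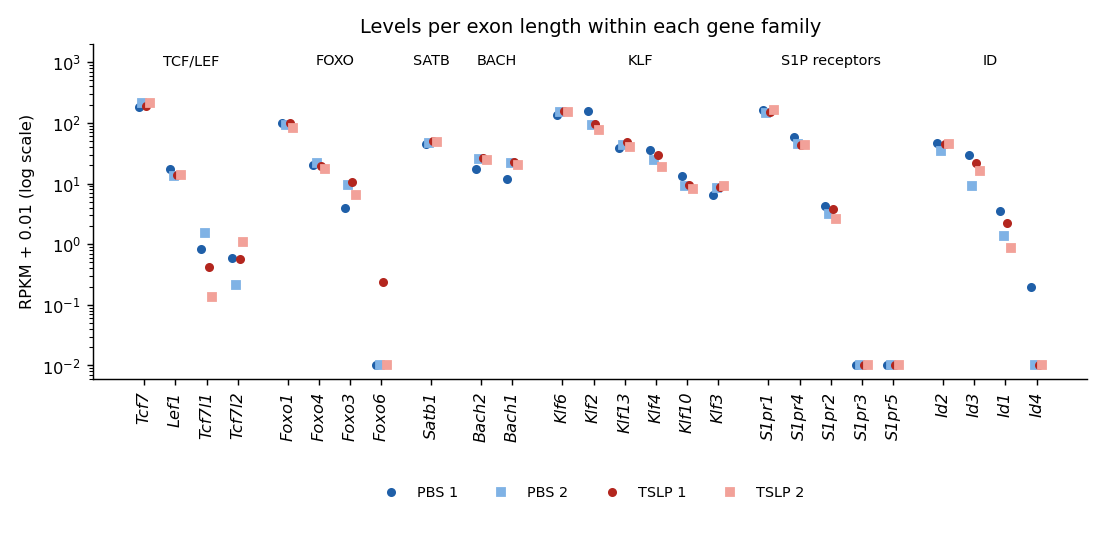
RPKM + 0.01 (log scale) of the quiescence genes and their relatives in each library, grouped by family. Tcf7, Foxo1 and S1pr1 lead their families in all libraries, Bach2 and Bach1 lie close together, Id2 lies above Id3 in all libraries, and Klf6 above Klf2 in all but PBS 1.

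Genes around these regulators were read from lists chosen by hand for their known roles. Of 13 genes known to be driven by FOXO factors, Klf2 and S1pr1 included, all were tested and 0 had an unadjusted p under 0.05 by limma. Their median log2 fold change was 0.016, with 7 positive and 6 negative values. Ccr7, the lymph node homing receptor, had the highest level of this list, with normalized counts of 22992 and 16455 with PBS and 18705 and 16006 with TSLP. Txnip, which encodes a brake on glucose uptake, had 4758 and 3674 with PBS and 4127 and 3477 with TSLP. In both genes PBS 1 was highest and TSLP 2 lowest. Il7r, added for its role and whose protein also forms part of the TSLP receptor, had 1571 and 2192 with PBS and 2094 and 2015 with TSLP. It was lowest in PBS 1 and highest in PBS 2, so that the groups overlapped. The groups did not overlap in 6 of the 13 genes, with 4 higher in both TSLP libraries (Sesn3, Ccng2, Irs2 and Bcl2l11) and 2 lower (Pik3ip1 and Gadd45a), beside 14.5% and 14.4% of all genes. These names were chosen after their values were seen. Irs2, an adaptor of insulin signaling, came nearest to the threshold, with normalized counts of 1056 and 2278 with PBS and 3062 and 2296 with TSLP, in which PBS 1 is low and PBS 2 is only just below TSLP 2. Its log2 fold change was 0.77 (unadjusted p = 0.0529 by limma, 0.0216 to 0.0794 by limma, edgeR and DESeq2 in the alternatives that kept all libraries) and its adjusted p was 0.9999 by limma. The fold change depended on which library was left out, at 0.22 without PBS 1 and 1.33 without PBS 2 (unadjusted p = 0.00387, adjusted p = 0.262 by limma), and was 0.57 without TSLP 1 and 0.98 without TSLP 2.

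Among 18 partners and regulators of these factors, 17 were listed under their symbols and 16 were tested. Their median log2 fold change was 0.0013, with 8 positive and 8 negative values, and 0 had an unadjusted p under 0.05 by limma. Ctnnb1, which encodes the TCF/LEF coactivator β-catenin, had normalized counts of 5919 and 6489 with PBS and 6656 and 6567 with TSLP. Gnai2, which encodes the G protein subunit that couples to S1P receptors, had 6453 and 5758 with PBS and 5758 and 5845 with TSLP. Mafk, which encodes a small MAF partner of BACH2, had 1806 and 1496 with PBS and 1394 and 1059 with TSLP, and a log2 fold change of −0.44 (unadjusted p = 0.105 by limma), which ranged from −0.24 without TSLP 2 to −0.63 without TSLP 1. The groups did not overlap in 3 of the 16 genes, with Ctnnb1 and Tcf12 higher and Mafk lower with TSLP, beside 14.5% higher and 14.4% lower of all genes.

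Genes of naive and central T cells and genes of activated and effector T cells were set side by side, since they mark the opposite sides of quiescence. Of 14 naive and central genes, all tested, 8 had positive and 6 negative log2 fold changes with a median of 0.072, and of 15 activation and effector genes, all tested, 8 had positive and 7 negative values with a median of 0.086. In neither list did a gene have an unadjusted p under 0.05 by limma. The groups did not overlap in 2 of the 14 naive genes (Klf3 higher and Cd27 lower with TSLP) and in 7 of the 15 activation genes (5 higher and 2 lower), beside 14.5% higher and 14.4% lower of all genes. Ets1, a T cell transcription factor, had normalized counts of 17223 and 20882 with PBS and 21260 and 19991 with TSLP. Cd27, a costimulatory receptor of resting cells, had 5234 and 4777 with PBS and 4154 and 4674 with TSLP. On the activation side, Icos, a costimulatory receptor, had 7468 and 6919 with PBS and 8033 and 7506 with TSLP, and Hif1a, a factor of the low-oxygen response, had 6304 and 7124 with PBS and 9046 and 8163 with TSLP. Irf4, a factor of effector Treg cells, had 3935 and 4469 with PBS and 4829 and 5005 with TSLP. Both TSLP values were above both PBS values in each of Icos, Hif1a and Irf4, and none of them passed the test. Cd44, an activation marker, was also higher without overlap and is named for that reason. It had 1828 and 1516 with PBS and 1928 and 2160 with TSLP, and a log2 fold change of 0.29 (unadjusted p = 0.217 by limma). Of the activation genes without overlap, Batf, a partner of IRF4, and Tbx21, which encodes T-bet, lay lower with TSLP and are named after their values were seen. Batf had 620.3 and 426 with PBS and 334 and 409.7 with TSLP, where PBS 1 stood highest, and its log2 fold change was −0.47 (unadjusted p = 0.161 by limma). Tbx21 had 82.4 and 90.05 with PBS and 82.0 and 78.4 with TSLP, the value of TSLP 1 being only just below that of PBS 1. Its log2 fold change was −0.10 (unadjusted p = 0.854 by limma). Prdm1, which encodes the effector regulator BLIMP1 and is a gene that BACH2 represses, came nearest to the threshold and is named for that reason. It had normalized counts of 178 and 236 with PBS and 308 and 396 with TSLP, again without overlap. Its log2 fold change was 0.76 (unadjusted p = 0.0569 by limma, 0.0436 to 0.0883 by limma, edgeR and DESeq2 in the alternatives that kept all libraries), its adjusted p was 0.9999 by limma, and the fold change ranged from 0.56 without PBS 1 to 0.97 without PBS 2.

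**Figure D5:**
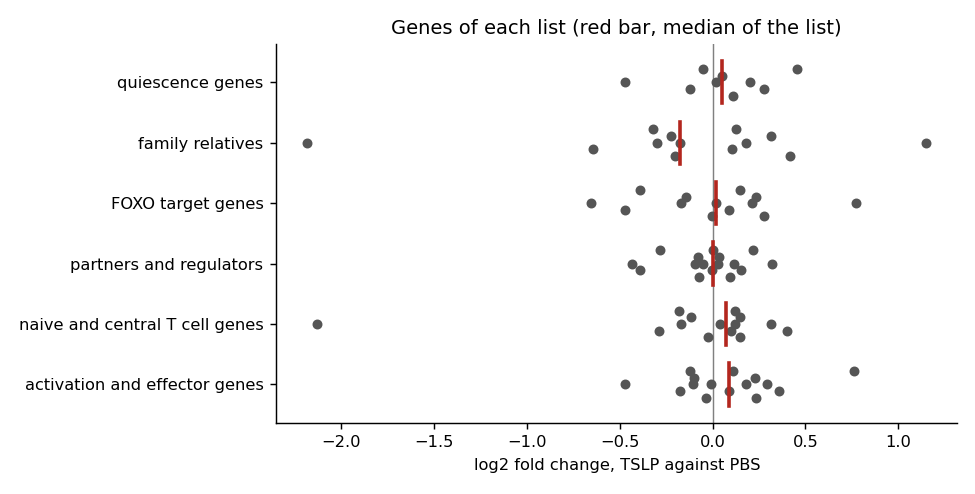
Log2 fold change (TSLP against PBS) of each tested gene (points) in the quiescence set and the hand-picked lists around it, with the median of each list (red bar). The medians lie between −0.17 and 0.086, and the points far from 0, Tcf7l1, Tcf7l2 and Dapl1, belong to genes with few reads.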

How the data were processed

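The authors mapped 50-base single-end reads from a directional kit to mm10 with HISAT2, counted them per gene with HTSeq and used DESeq2, per the labels and the study's methods. The labels and the methods name different RNA extraction reagents. What the authors deposited is a signal per gene and library, their counts over a size factor of that library. In every library 100% of the values above 0 lay within 0.01 of a whole multiple of a single step, which gave back the reads. In PBS 2 this step lay close to 1, and there the whole numbers rest on the decimals of the deposited values.

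Tests covered the 11392 genes whose normalized count reached 10 in 2 or more libraries and were run with limma 3.58.1 (R 4.3.3) on log2(normalized count + 1), with a trended empirical Bayes variance, all 4 libraries and no covariate. Fold changes are on this scale. Normalized values are not counts, so edgeR 4.0.16 and DESeq2 1.42.0 on the recovered reads were alternatives, beside other scalings, filters and pseudocounts, a replicate block, removal of a lowess trend over exon length, and leaving out each library. The code was tested on simulated data. Positions and exon lengths came from GENCODE release M21, in which 23307 of the 24418 names had a unique exon length, and promoter sequences from RefSeq. Of the names, 27 had turned into dates.

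The members and lists were chosen with earlier results of these data known. Named are all members and, in each list, genes with an unadjusted p under 0.05 by limma, the 3 genes with the highest levels and the family relatives, for Id3 the 3 genes most like it, and the markers by list. Other names are given for the reason stated beside them. Some items of the lists are not reported here, and the lists were counted without them.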

Additional observations from a re-analysis of the deposited data

How the results depend on the processing

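Under 11 alternatives that kept all libraries, 96 of the 99 log2 fold changes of the 9 genes kept their direction. The others were Id3, −0.012 by edgeR with TMM and −0.011 by DESeq2, and Satb1, −0.16 with the exon length trend removed; the cause was not tested. No gene of the 9 had an adjusted p under 0.05 in any of the 15 alternatives, the smallest being 0.268 by limma with Benjamini-Hochberg adjustment without PBS 2. Unadjusted p-values under 0.05 by limma were found among the 9 genes in these alternatives only without PBS 2, for Klf2 (0.0156) and Bach2 (0.0264), and without PBS 1, for Id3 (0.0462). The number of genes with an unadjusted p under 0.05 by limma was 358 without a filter on low counts, where 13945 genes were tested.

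With a library left out the lone library of its group is assumed to vary like the other group. This number then ranged from 79 (without TSLP 2) to 1858 (without PBS 2), and the median log2 fold change of the 9 genes from −0.085 (without PBS 2) to 0.11 (without TSLP 2), with 4 to 6 genes positive. Of 36 values, 10 changed sign. The log2 fold changes ranged from −0.15 to 1.06 for Foxo3 and from −0.32 to 0.071 for Lef1, where PBS 1 decided the sign, from −0.068 to 0.17 for Tcf7 and from −0.21 to 0.11 for Foxo1 (PBS 1 and TSLP 2), from −0.085 to 0.12 for S1pr1 (PBS 2 and TSLP 2) and from −0.64 to 1.04 for Id3 (PBS 2 and TSLP 1). Klf2 ranged from −0.88 to −0.069, Bach2 from 0.0069 to 0.55 and Satb1 from 0.046 to 0.18.

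With the replicate number as a replicate block, limma and edgeR each gave 0 adjusted p-values under 0.05 over all genes, the 9 included, and 258 and 215 unadjusted ones. The replicate differences of the groups had a correlation of 0.020 across the 8205 genes averaging 100 reads or more, which does not establish a pairing, and whether samples of the same number shared mice, a day or a sort is not given in the sources used here. Among the 9 genes the fewest reads in a library were 177.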
